A study of Mus musculus with 32 samples.

Results

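The urea cycle and amino acid enzymes of the periportal liver were followed here through 9 genes, Cps1, Ass1, Asl, Arg1, Otc, Hal, Sds, Gls2 and Tat, in the livers of mice kept on a steady light cycle or under chronic jet lag. Each gene was found on the array through the RefSeq accession of its probes, which gave 11 of the 55681 probes. Ass1 and Otc had 2 probes each, the other genes 1, and the brightest probe stood for each gene. The 9 genes are among 23106 genes tested.

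Liver cells nearest the portal vein receive blood from the gut first, and they take up much of its amino acids. There, glutaminase and the amino acid degrading enzymes release ammonia, and the urea cycle, which starts in the mitochondrion and ends in the cytosol, turns it into urea for the kidney to excrete. Several of these genes are known targets of glucocorticoids and glucagon and vary with feeding and fasting.

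All animals were male wild-type C57BL/6 mice, housed singly, and each array held the liver RNA of 1 mouse. Steady mice (NS) lived in 12 h of light and 12 h of dark. Jet-lagged mice (CJ) went back and forth between a pair of rooms with lights on 8 h apart, beginning when they were 4 weeks old. Tissue was collected at ZT2 and ZT10, in the light phase, and at ZT18, in the dark phase (ZT counts hours from lights on), at 12 or 30 weeks of age. There were 12 combinations of schedule, time and age, each with 3 mice except those at ZT2, which had 2, so 16 NS and 16 CJ mice in all. The labels do not say how many days after the last shift a jet-lagged liver was taken, and the p-values measure the spread between these mice.

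Levels are log2 of the processed signal over the 75th percentile of the same array, so that a level of 5 is 5 doublings above that percentile, and they compare mice for 1 probe but not genes with each other. Between 24178 and 32337 probes were well above background on each array, and all 11 probes of the 9 genes were so on 32 of 32 arrays, with 0 saturated. Of 10 hepatocyte genes 9 to 10 were detected per array, and all 15 of a list of other periportal genes. RNA of pancreas was present in some livers: the mean level of 13 measured acinar genes ranged from -3.61 to 3.47, and 10 arrays, 7 of them CJ, stood more than 2 log2 units above the median and are called acinar-rich. The mean of 19 skeletal muscle genes ranged from -3.95 to 3.12 and was highest at ZT18 in steady mice, with group means of -2.61, -2.64 and 0.83 at ZT2, ZT10 and ZT18 at 12 weeks and of -1.94, -2.74 and 1.23 at 30 weeks. At ZT2 and 30 weeks the mean of 17 acute phase genes was 6.69 and 6.95 in the CJ mice and 5.51 and 5.55 in the NS mice, while over all 32 livers it ran from 5.16 to 6.95. The mean of 5 erythroid genes was lower in those CJ mice, at 3.40 to 3.56 against 4.09 to 4.42 in the NS mice. The results were refitted without the acinar-rich arrays, without ZT2, and with acinar and muscle levels as covariates, and the part of the acute phase and erythroid signals in them was not tested. Without the acinar-rich arrays some groups keep 1 mouse, and whether calls lost there went with the mice or with pancreas RNA was not tested. In whole liver, fewer periportal cells and less RNA per cell cannot be told apart.

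RefSeq promoter sequences (build GRCm38.p6, the 250 bases before the start, all on the plus strand) were at hand for 4 of the 9 genes, Ass1, Otc, Hal and Tat. Those of the 3 genes that were lower in jet-lagged livers at 30 weeks, Ass1 at chr2:31470020-31470269, Hal at chr10:93488518-93488767 and Tat at chr8:109990186-109990435, are shown to let their upstream sequences be set side by side. Capitals mark matches, on either strand, to any of 7 short motifs: the E-box CACGTG, the D-box TTANGTAA, the cAMP response half-site TGACG, the glucocorticoid receptor half-site TGTTCT, the nuclear receptor half-site AGGTCA, the CCAAT box CCAAT and the TATA box TATAAA.
Ass1: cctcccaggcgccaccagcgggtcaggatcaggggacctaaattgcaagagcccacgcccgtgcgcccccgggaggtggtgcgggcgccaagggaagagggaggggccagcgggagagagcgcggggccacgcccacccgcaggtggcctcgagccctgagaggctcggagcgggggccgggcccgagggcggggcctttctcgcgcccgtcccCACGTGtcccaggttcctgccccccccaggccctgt
Hal: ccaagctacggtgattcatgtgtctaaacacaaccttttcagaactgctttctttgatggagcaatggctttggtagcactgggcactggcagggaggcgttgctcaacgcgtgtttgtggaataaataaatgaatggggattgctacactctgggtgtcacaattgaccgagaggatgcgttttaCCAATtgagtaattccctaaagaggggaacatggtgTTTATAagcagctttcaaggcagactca
Tat: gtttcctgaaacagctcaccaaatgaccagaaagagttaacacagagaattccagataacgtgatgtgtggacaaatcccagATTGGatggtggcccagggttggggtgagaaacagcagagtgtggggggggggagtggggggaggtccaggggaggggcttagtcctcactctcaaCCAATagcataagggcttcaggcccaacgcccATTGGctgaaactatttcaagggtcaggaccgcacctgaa
Ass1 holds 1 E-box, 36 bases before the start, a match that 6.0% of 32851 promoters of this length have. Hal holds a CCAAT box 64 bases before the start, a motif in 33.8% of promoters, and a TATA box on the other strand that begins 28 bases before the start (12.4%). Tat holds 3 CCAAT boxes, 1 on the plus strand 72 bases before the start and 2 on the other strand 168 and 40 bases before it. In these 3 windows there was no match to the D-box (in 2.1% of promoters), the cAMP response half-site (17.8%), the glucocorticoid half-site (16.1%) or the nuclear receptor half-site (14.0%), and the Otc window at chrX:10252055-10252304 held none of the 7 motifs. No motif was shared by all 3 sequences, and a match is a description of letters only.

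The levels of the 9 genes spread unevenly over the 12 groups. Sds had the widest span of group means (1.51 on the log2 scale, 2.85-fold), followed by Asl (1.31, 2.48-fold), Tat (1.19, 2.28-fold), Ass1 (1.11, 2.16-fold), Cps1 (0.98, 1.97-fold) and Hal (0.94, 1.92-fold). Otc (0.57, 1.48-fold), Arg1 (0.50, 1.41-fold) and Gls2 (0.42, 1.34-fold) moved least. The median SD within a group was between 0.10 and 0.28. The CJ group at ZT2 and 30 weeks, of 2 mice, was the lowest of 12 for 5 genes, Cps1, Ass1, Arg1, Gls2 and Tat. It was separate from the next group for Ass1 and Arg1 and overlapped it for Cps1, Gls2 and Tat. How often this group was lowest over all genes was not counted. When the 12 groups were ordered by level, most neighbours overlapped. Of 11 neighbouring pairs, 3 were separate for Asl, 2 for Otc and Tat, 1 for Arg1, Ass1 and Cps1, and 0 for Gls2, Hal and Sds.

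**Figure D1:**
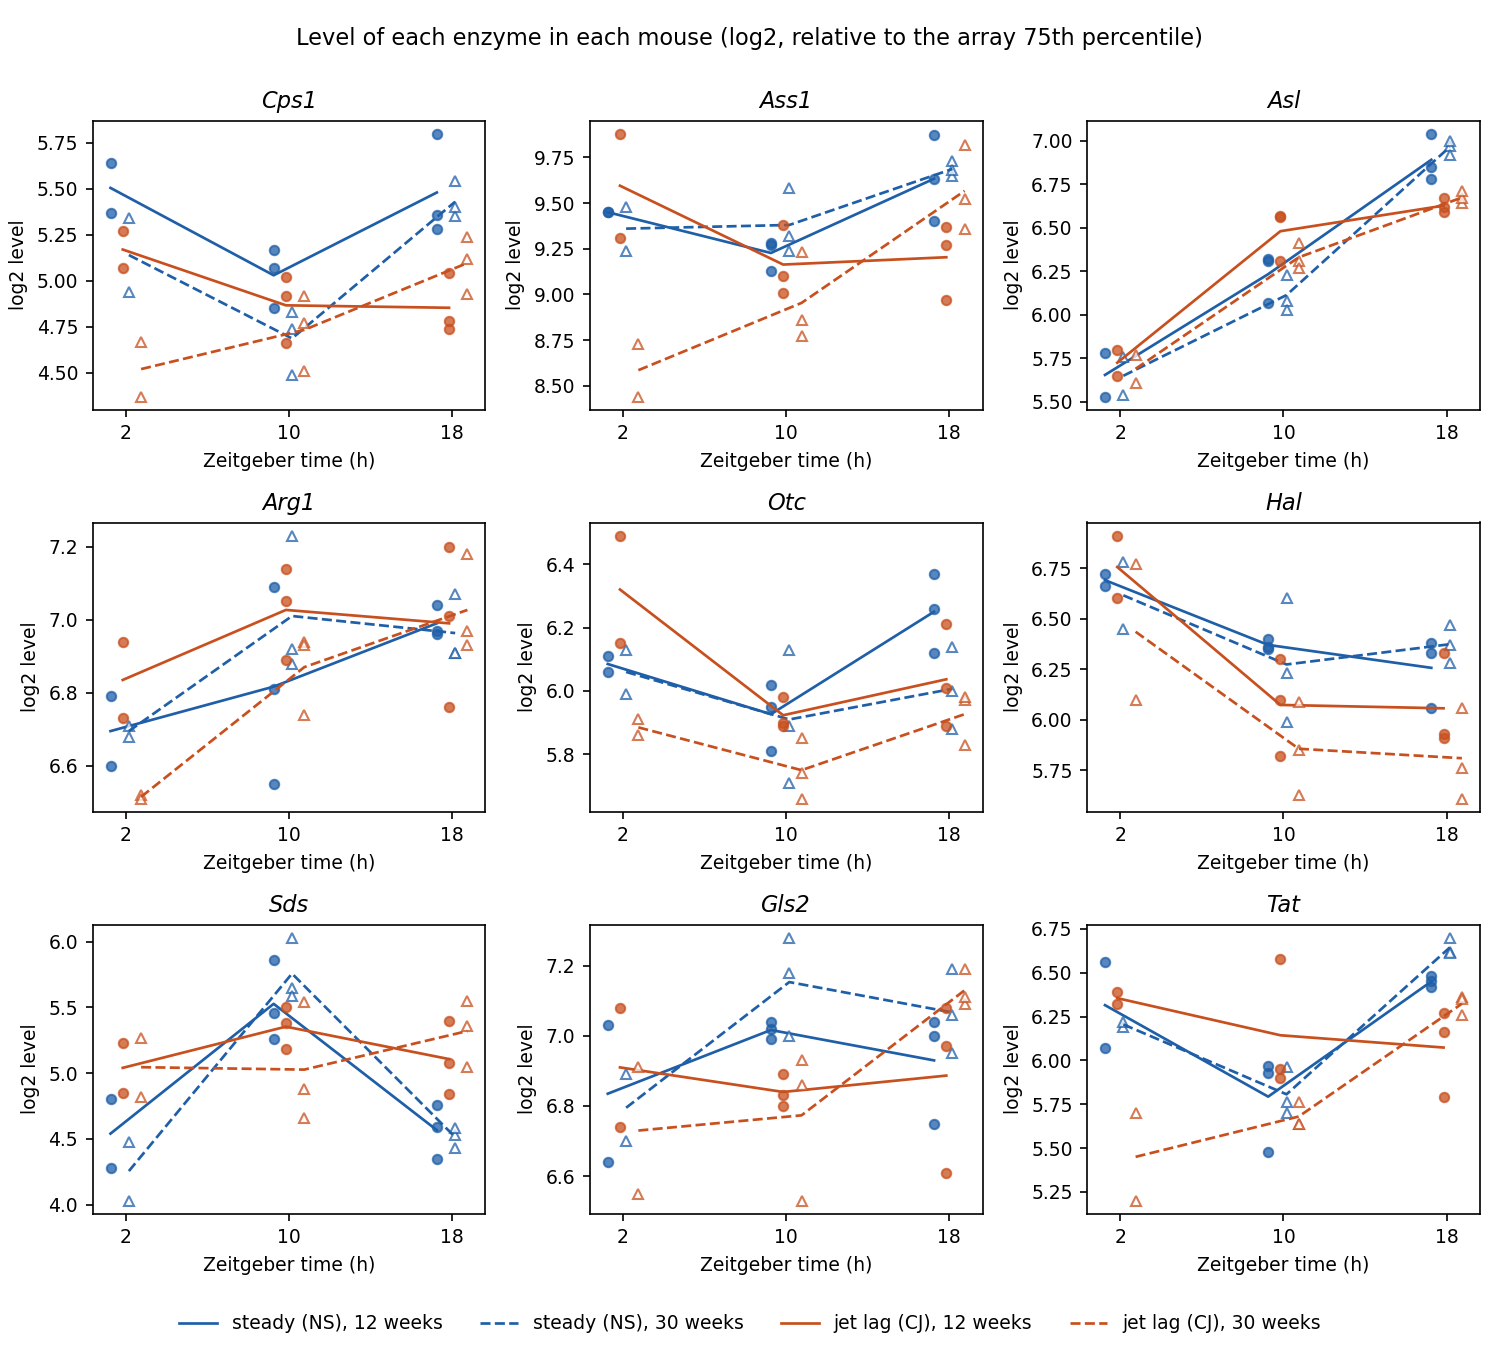
Level of each of the 9 genes (log2 over the array's 75th percentile) in every liver, by time of day (ZT2, ZT10, ZT18); blue NS, orange CJ, filled circles and solid lines 12 weeks, open triangles and dashed lines 30 weeks, lines joining group means. Asl climbs from ZT2 to ZT18 in all 4 series, and the ZT10 values of Sds stand clear of its other values in both blue series, up to a mean of 5.76 at 30 weeks.

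How the genes varied over the day was asked first in the steady mice. Of the 9 genes, 3 varied with time of day at 12 weeks, Asl, Sds and Tat, where 17.5% of all genes did, and 4 at 30 weeks, the same 3 and Cps1, where 11.2% did (limma, adjusted p under 0.05 over 23106 genes). In jet-lagged mice 1 gene varied at 12 weeks, Asl (5.67% of all genes), and 3 at 30 weeks, Asl, Ass1 and Tat (3.71%). The median distance from the lowest to the highest time was 0.43 and 0.40 over the 9 genes in NS mice at 12 and 30 weeks, against 0.34 and 0.31 over all genes, and 0.31 and 0.48 in CJ mice, against 0.29 and 0.27. The muscle genes were highest at ZT18 in NS mice, as were Asl and Tat at both ages and Cps1 at 30 weeks. At 12 weeks the NS mean of Cps1 was 5.50 at ZT2 and 5.48 at ZT18. With acinar and muscle levels as covariates, all 7 NS calls and both Asl calls in CJ mice still passed, and the CJ calls of Ass1 and Tat did not (adjusted p = 0.0813 and 0.136).

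Asl, the cytosolic lyase that splits argininosuccinate into arginine and fumarate, had the firmest daily course of the 9. In NS mice of 12 weeks it read 5.53 and 5.78 at ZT2, 6.31, 6.32 and 6.07 at ZT10, and 6.85, 6.78 and 7.04 at ZT18. In CJ mice of that age it read 5.80 and 5.65, then 6.31, 6.56 and 6.57, then 6.62, 6.67 and 6.59. The 3 times do not overlap in either set, and ZT18 is highest in both. At 30 weeks NS mice read 5.76 and 5.54, then 6.08, 6.03 and 6.23, then 6.97, 7 and 6.92. The CJ mice of 30 weeks read 5.77 and 5.61, then 6.41, 6.31 and 6.27, then 6.64, 6.67 and 6.71, again with no overlap between times. The range over the day was 1.22 (adjusted p = 2.06e-07) and 1.31 (1.04e-07) in NS mice at 12 and 30 weeks, and 0.92 (2.46e-05) and 0.94 (0.000144) in CJ mice. All 4 calls held when any 1 of the 32 mice was left out. Without the ZT2 mice the step from ZT10 to ZT18 in CJ mice was 0.13 (adjusted p = 0.891) at 12 weeks and 0.33 (0.354) at 30 weeks.

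The range of Asl over the day was smaller in CJ than in NS mice at both ages, but the difference in course did not pass the test. CJ mice were 0.22 and 0.23 above NS mice at ZT10 (adjusted p = 0.221 and 0.3 at 12 and 30 weeks) and 0.23 and 0.32 below them at ZT18 (CJ minus NS -0.23 and -0.32, adjusted p = 0.191 and 0.054). At ZT18 the CJ and NS values do not overlap at either age, as for 19.7% and 23.4% of all genes at 12 and 30 weeks. Schedule by time of day gave 0.46 (adjusted p = 0.155) and 0.55 (0.0667), where the value is the range over the 3 times of the CJ minus NS difference.

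Sds, serine dehydratase, which turns serine into pyruvate and ammonia and feeds gluconeogenesis, had a day peak in steady mice. NS mice of 30 weeks read 4.48 and 4.03 at ZT2, 6.03, 5.65 and 5.59 at ZT10, and 4.53, 4.58 and 4.43 at ZT18. CJ mice of 30 weeks read 4.82 and 5.27, then 5.54, 4.88 and 4.66, then 5.55, 5.36 and 5.05. In NS mice every ZT10 value lies above every other value, whereas the 3 times overlap in CJ mice. At 12 weeks NS mice read 4.28 and 4.80, then 5.86, 5.46 and 5.26, then 4.59, 4.35 and 4.76, and the ZT10 mice again stood apart. The CJ mice of 12 weeks read 4.85 and 5.23, then 5.18, 5.50 and 5.38, then 5.40, 5.08 and 4.84, with overlap between the times. The range over the day was 1.05 (adjusted p = 0.00284) and 1.53 (0.00028) in NS mice at 12 and 30 weeks, and 0.31 (0.73) and 0.19 (0.893) in CJ mice. Both NS calls held without any 1 of the 32 mice, but without the acinar-rich arrays that at 12 weeks was lost (0.92, adjusted p = 0.0532).

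The course of Sds over the day differed between the schedules at 30 weeks. It was the 1 gene of 9 for which schedule by time of day passed the test there, with a range of the differences of 1.56 (adjusted p = 0.0194), where 1.87% of all genes passed. At 12 weeks 0 of 9 genes passed, where 1.93% of all genes did. There 3 had an unadjusted p under 0.05 (limma), and Sds gave 0.85 (adjusted p = 0.294). At 30 weeks the CJ minus NS difference of Sds was 0.88 ± 0.27 (SE, adjusted p = 0.122) at ZT2, 0.70 ± 0.22 (0.0786) at ZT18 and -0.68 ± 0.22 (0.165) at ZT10, and none of these 3 passed on its own. At 12 weeks the same 3 differences were 0.48 (0.524), 0.62 (0.144) and -0.23 (0.637). The call at 30 weeks was lost without mouse 1 of the NS group at ZT10 and 30 weeks (1.46, adjusted p = 0.0557) and without mouse 2 (1.5, 0.0512) or mouse 3 (1.38, 0.0543) of the CJ group at ZT10. It was also lost without the acinar-rich arrays (1.14, 0.465) and with the slide as a fixed block (1.59, 0.198).

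**Figure D2:**
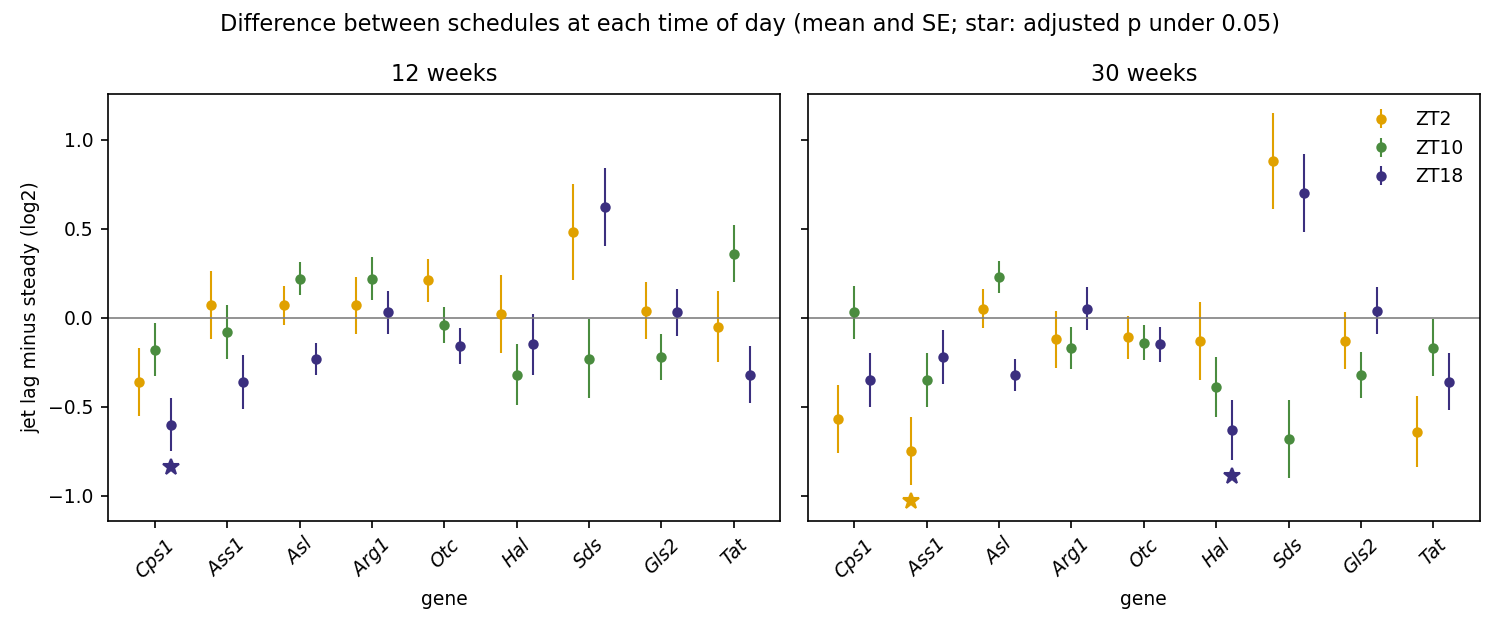
CJ minus NS difference of each of the 9 genes (log2, mean and SE from the fit) at ZT2, ZT10 and ZT18, at 12 and at 30 weeks; a star marks adjusted p under 0.05. Sds at 30 weeks lies above 0 at ZT2 and ZT18 (0.88 and 0.70) and below 0 at ZT10 (-0.68), and 3 points carry a star, Cps1 at ZT18 and 12 weeks, Ass1 at ZT2 and 30 weeks and Hal at ZT18 and 30 weeks.

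Tat, tyrosine aminotransferase, which opens the breakdown of tyrosine, was highest at ZT18 in steady mice. NS mice of 12 weeks read 6.07 and 6.56 at ZT2, 5.97, 5.93 and 5.48 at ZT10, and 6.42, 6.48 and 6.45 at ZT18. NS mice of 30 weeks read 6.19 and 6.22, then 5.96, 5.76 and 5.70, then 6.70, 6.62 and 6.61. At 30 weeks the 3 times do not overlap in NS mice, and at 12 weeks the ZT2 values span those of ZT18. The range was 0.66 (adjusted p = 0.0122) at 12 weeks and 0.79 (0.00648) at 30 weeks. Without mouse 3 of the NS group at ZT10 and 12 weeks, the lowest of its group, the range at that age was 0.50 (0.112). Without the acinar-rich arrays the ranges were 0.67 (0.0805) and 0.76 (0.0739), and with the slide as a fixed block that at 30 weeks was 0.73 (0.0555). Jet-lagged mice had a range of 0.21 (0.747) at 12 weeks and 0.79 (0.0204) at 30 weeks, when CJ mice read 5.20 and 5.70 at ZT2, 5.64, 5.76 and 5.64 at ZT10, and 6.36, 6.35 and 6.26 at ZT18. That second call was lost without mouse 1 at ZT2 (0.60, adjusted p = 0.0725) and without mouse 1, 2 or 3 at ZT18 (0.80, 0.77 and 0.80, with adjusted p = 0.0566, 0.0841 and 0.0578). It was also lost without the acinar-rich arrays (0.79, 0.169), without the ZT2 mice (0.62, 0.295) and with the slide as a fixed block (0.68, 0.151).

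Cps1, the mitochondrial synthetase that commits ammonia to the urea cycle, varied over the day in NS mice of 30 weeks by 0.71 (adjusted p = 0.0104), with the ZT18 mice highest at 5.35, 5.54 and 5.40 and the ZT10 mice lowest at 4.83, 4.74 and 4.49. Without mouse 3 of that ZT10 group the range was 0.65 (0.0501), without the acinar-rich arrays 0.73 (0.0545), and with the slide as a fixed block 0.65 (0.105). Its ranges in the other series were 0.46 (NS at 12 weeks, 0.0631), 0.27 and 0.48 (CJ at 12 and 30 weeks), and none passed. Ass1, which joins citrulline and aspartate to argininosuccinate, varied over the day in CJ mice of 30 weeks by 0.90 (adjusted p = 0.00702), with 8.44 and 8.73 at ZT2, 9.23, 8.86 and 8.77 at ZT10, and 9.52, 9.82 and 9.36 at ZT18. Every ZT18 value there is above every value of the other times. Without mouse 1 at ZT2, the lowest of all 32 livers, the range was 0.72 (0.0602). It was 0.58 (0.309) without the ZT2 mice, 0.80 (0.0559) without the acinar-rich arrays and 0.80 (0.0629) with the slide as a fixed block. In NS mice the range of Ass1 was 0.32 and 0.40 and did not pass. The second Ass1 probe gave 0.91 in CJ mice of 30 weeks. Hal, the histidase that opens histidine breakdown, had CJ ranges of 0.62 (0.0977) and 0.74 (0.0668), with ZT2 highest. Otc, the mitochondrial enzyme that makes citrulline, Arg1, which releases urea from arginine, and Gls2, the liver glutaminase, passed in 0 of the 4 tests of time of day. In those 4 tests 5 and 6 of the 9 genes (NS) and 3 and 7 of them (CJ) had an unadjusted p under 0.05.

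The schedules were then compared over the mean of the 3 times. At 30 weeks 8 of 9 differences were negative, Asl at -0.01 and Arg1 at -0.08 among them. The median was -0.14 against -0.01 over all genes, and the share of all genes with a negative difference is not given. Ass1, Hal and Tat passed the test, all 3 lower, where 5.99% of all genes passed and 4.07% passed as lower. In the same comparison 7 of 17 acute phase genes were higher and 4 lower in CJ livers (median 0.24), and 3 of 5 erythroid genes were lower and 0 higher (median -0.53), and their part in these results was not tested. At 12 weeks 1 of 9 passed, Cps1, lower in CJ mice, where 4.36% of all genes passed and 2.41% passed as lower. There 5 differences were negative and 4 positive, with a median of 0.00 against 0.02 over all genes.

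Cps1 at 12 weeks read 5.37 and 5.64 (ZT2), 5.17, 5.07 and 4.85 (ZT10), and 5.28, 5.36 and 5.80 (ZT18) in NS mice. In CJ mice of that age it read 5.27 and 5.07, then 4.92, 5.02 and 4.66, then 5.04, 4.78 and 4.74. The groups are separate at ZT2 and at ZT18 and overlap at ZT10. The CJ minus NS difference over the 3 times was -0.38 (95% interval -0.57 to -0.19, 1.3-fold lower, adjusted p = 0.0189). It was -0.30 at 30 weeks (interval -0.48 to -0.11, adjusted p = 0.0504), when NS mice read 5.34 and 4.94, then 4.83, 4.74 and 4.49, then 5.35, 5.54 and 5.40, and CJ mice 4.37 and 4.67, then 4.92, 4.77 and 4.51, then 4.93, 5.12 and 5.24. The groups at that age are again separate at ZT2 and ZT18 but not at ZT10. At ZT2, with 2 mice in each group, 43.7% and 51.9% of all genes were separate at 12 and 30 weeks. At ZT18 19.7% and 23.4% were. The call at 12 weeks was lost without mouse 2 of the NS group at ZT2 (-0.33, adjusted p = 0.085), without mouse 2 of the CJ group at ZT2 (-0.33, 0.0989) and without mouse 3 of the CJ group at ZT10 (-0.33, 0.0509). Without the acinar-rich arrays the difference was -0.47 (0.0752), and without the slide as a block -0.38 (0.0552).

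**Figure D3:**
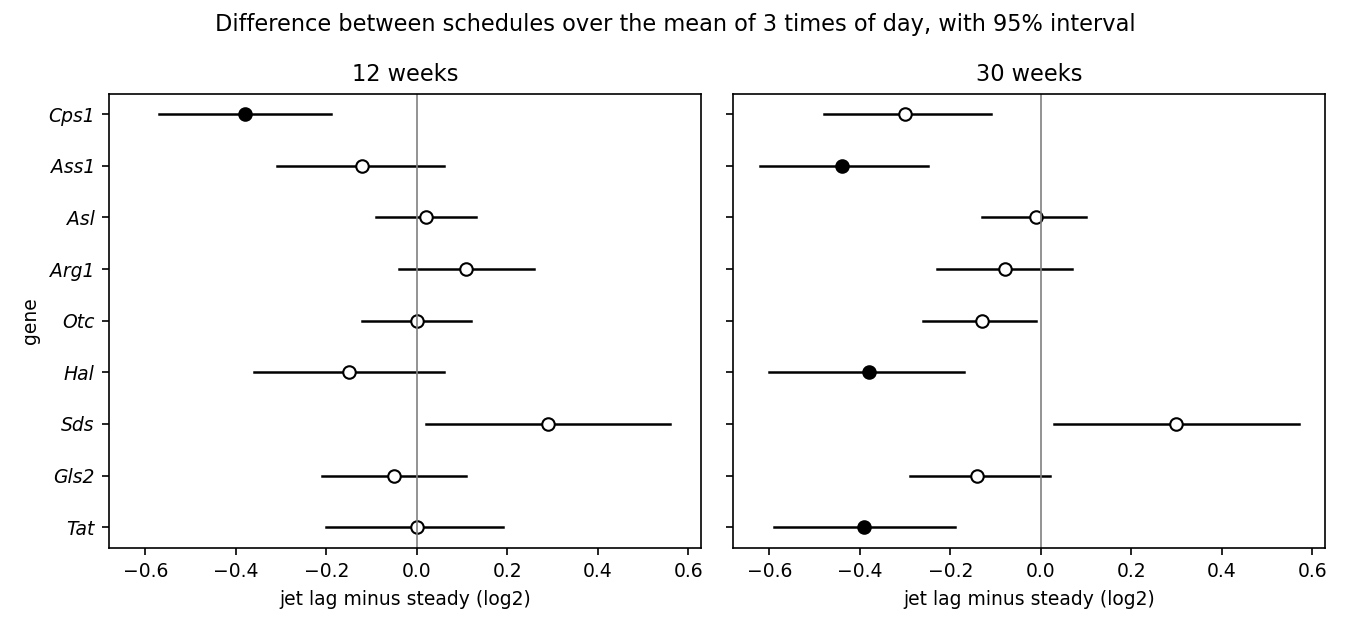
CJ minus NS difference over the mean of the 3 times (log2, point and 95% interval) for the 9 genes at 12 and at 30 weeks; filled points have adjusted p under 0.05. At 12 weeks Cps1 alone is filled, at -0.38, and at 30 weeks Ass1 (-0.44), Hal (-0.38) and Tat (-0.39) are filled.

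Ass1 had the largest of the 9 differences at 30 weeks. NS mice of that age read 9.48 and 9.24 at ZT2, 9.58, 9.32 and 9.24 at ZT10, and 9.65, 9.73 and 9.68 at ZT18, and the CJ values are those given above with its daily course. The schedules are separate at ZT2 and at ZT10, where the highest CJ mouse read 9.23 and the lowest NS mouse 9.24, and overlap at ZT18. At ZT2 51.9% of all genes were separate and at ZT10 14.4%. The difference was -0.44 (interval -0.62 to -0.25, 1.35-fold lower, adjusted p = 0.00449), and it passed without any 1 of the 32 mice. The second Ass1 probe gave -0.47 (0.00282). Without the ZT2 mice the difference was -0.28 (0.165), and without the acinar-rich arrays -0.37 (0.0576). At 12 weeks it was -0.12 (0.457).

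Hal read 6.78 and 6.45, then 6.60, 6.23 and 5.99, then 6.28, 6.47 and 6.37 in NS mice of 30 weeks, and 6.10 and 6.77, then 6.09, 5.85 and 5.63, then 5.76, 6.06 and 5.61 in CJ mice. The schedules are separate at ZT18, as were 23.4% of all genes, and overlap at the other times. The difference was -0.38 (interval -0.60 to -0.17, 1.3-fold lower, adjusted p = 0.0286). It missed the threshold without mouse 1 of either schedule at ZT2, mouse 1 of the NS or mouse 3 of the CJ group at ZT10, and mouse 2 of the NS or mouse 3 of the CJ group at ZT18, with values from -0.27 to -0.37 and adjusted p from 0.057 to 0.215. It was -0.33 (0.214) without the acinar-rich arrays, -0.38 (0.0644) with the slide as a fixed block, -0.39 (0.0685) with no slide block, -0.31 (0.0611) after quantile normalization and -0.38 (0.0577) with no filter on dim probes. At 12 weeks the difference was -0.15 (0.438).

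For Tat, the CJ mice of 30 weeks lay below the NS mice at ZT2 and at ZT18 with no overlap, and within their range or just below it at ZT10. The schedules did not overlap for 51.9% of all genes at ZT2 and 23.4% at ZT18. The difference was -0.39 (interval -0.59 to -0.19, 1.31-fold lower, adjusted p = 0.0149). It was lost without mouse 2 of the NS group at ZT2 (-0.38, 0.0558), without mouse 1 of the CJ group at ZT2 (-0.29, 0.132), without all ZT2 mice (-0.27, 0.198) and without the acinar-rich arrays (-0.37, 0.157). At 12 weeks, when CJ mice read 6.39 and 6.32, then 5.90, 6.58 and 5.95, then 6.27, 6.16 and 5.79, the difference was 0.00 (interval -0.20 to 0.19, adjusted p = 0.991).

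The other 5 genes did not pass between schedules at either age. Otc gave 0.00 and -0.13 (adjusted p = 0.204 at 30 weeks), Gls2 -0.05 and -0.14 (0.358 at 30 weeks), Arg1 0.11 and -0.08, Asl 0.02 and -0.01, and Sds 0.29 (0.209) and 0.30 (0.2) at 12 and 30 weeks. The 2 probes of Otc disagreed at 12 weeks: the dimmer one was lower in CJ livers (-0.34, adjusted p = 0.0339 in a fit of all probes) while the one used was at 0.00 (0.987).

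At single times, 3 of the 54 pairs of gene and comparison passed, against 1.75% of all such pairs, and all 3 were lower in CJ livers. The share of all genes that passed was 2.88% at ZT18 and 12 weeks, 1.39% at ZT2 and 30 weeks and 3.52% at ZT18 and 30 weeks. At the other 3 times it was 0.247% (ZT2, 12 weeks), 1.81% (ZT10, 12 weeks) and 0.679% (ZT10, 30 weeks), and 0 of the 9 genes passed, with 0, 2 and 5 of them at an unadjusted p under 0.05 (limma). Cps1 was 1.51-fold lower at ZT18 and 12 weeks (-0.60 ± 0.15, SE, adjusted p = 0.0346). Ass1 was 1.68-fold lower at ZT2 and 30 weeks (-0.75 ± 0.19, 0.0487). In a fit of all probes neither Ass1 probe passed there, the second at -0.73 (adjusted p = 0.0613) and the one used at -0.75 (0.0547). The authors' table gave -0.43 (0.165). Hal was 1.54-fold lower at ZT18 and 30 weeks (-0.63 ± 0.17, 0.0469). The last 2 calls lie just inside the threshold: the Ass1 call held without 1 mouse in 12 of 32 fits and the Hal call in 10 of 32. Under the settings other than leaving out 1 mouse the Ass1 call held in 6 of 12 and the Hal call in 4 of 13, and that of Cps1 in 8 of 13. The Cps1 call was lost without mouse 1 (-0.67, adjusted p = 0.0589) or mouse 3 (-0.46, 0.164) of the NS group and without mouse 2 (-0.59, 0.123) or mouse 3 (-0.51, 0.12) of the CJ group at ZT18 and 12 weeks. Values of the schedules did not overlap for 3, 2 and 5 of the 9 genes at ZT2, ZT10 and ZT18 at 12 weeks (43.7%, 18.6% and 19.7% of all genes) and for 6, 4 and 5 at 30 weeks (51.9%, 14.4% and 23.4%).

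On 4 of the 8 slides a CJ and an NS mouse of the same time and age lay side by side. In the pairs at 30 weeks, at ZT10 and ZT18, the CJ mouse minus the NS mouse was -0.09 and -0.37 for Ass1, -0.14 and -0.87 for Hal, and -0.12 and -0.37 for Tat, lower in both pairs for each gene. In the same pairs it was 0.18 and -0.3 for Cps1, 0.38 and -0.3 for Asl, and 0.02 and 0.02 for Arg1. For Otc it was -0.04 and -0.31, for Sds -0.12 and 0.47, and for Gls2 -0.07 and -0.09. For Cps1 in the pairs at 12 weeks it was 0.07 at ZT10 and -0.50 at ZT18. All these mice were in the fits that called the genes, so the pairs are not separate support.

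Age was compared within each schedule. Between 12 and 30 weeks 0 of 9 genes passed in NS mice, where 0.861% of all genes did, and 1 had an unadjusted p under 0.05 (limma), Cps1, at -0.25. In CJ mice 2 genes passed, Otc and Tat, both lower at 30 weeks, where 4.99% of all genes passed and 2.73% passed as lower. None of the 9 was higher at 30 weeks in CJ mice, Gls2 standing at 0.00, and the median was -0.17 against -0.03 over all genes. The share of all genes that were lower there is not given.

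Otc in CJ mice read 6.15 and 6.49 (ZT2), 5.90, 5.98 and 5.89 (ZT10) and 6.21, 6.01 and 5.89 (ZT18) at 12 weeks, and 5.86 and 5.91, then 5.85, 5.66 and 5.74, then 5.97, 5.98 and 5.83 at 30 weeks. The ages are separate at ZT2 and ZT10 and overlap at ZT18. The difference was -0.23 ± 0.06 (SE, adjusted p = 0.0223), but the other Otc probe gave -0.06 (0.741). That of Tat was -0.36 ± 0.09 (0.0254). The Otc call was lost without mouse 2 at ZT2 (-0.19, adjusted p = 0.126) or mouse 1 at ZT18 (-0.21, 0.0539) of the CJ mice of 12 weeks, and without mouse 1 (-0.23, 0.074) or mouse 2 (-0.24, 0.0508) at ZT2 or mouse 2 at ZT10 (-0.22, 0.0522) of those of 30 weeks. The Tat call was lost without mouse 2 at ZT2 (-0.38, 0.0666) or mouse 1 (-0.34, 0.056) or mouse 2 (-0.34, 0.0605) at ZT18 of the CJ mice of 12 weeks, and without mouse 1 at ZT2 (-0.27, 0.166) or mouse 3 at ZT10 (-0.35, 0.0507) of those of 30 weeks. Without the ZT2 mice the differences were -0.16 (0.248) for Otc and -0.13 (0.527) for Tat, and without the acinar-rich arrays -0.24 (0.335) and -0.24 (0.535). With no slide block and after quantile normalization both calls were also lost (adjusted p = 0.0677 and 0.0553 for Otc, 0.0604 and 0.0622 for Tat).

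Whether the effect of the schedule differed between the ages was tested directly, and 0 of 9 genes passed, as did 0.00866% of all genes. By limma 2 had an unadjusted p under 0.05, Tat at -0.39 and Ass1 at -0.31 (30 minus 12 weeks). The calls of Ass1, Hal and Tat at 30 weeks and of Cps1 at 12 weeks are thus not shown to belong to 1 age.

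The other genes of the pathway were taken from lists. Among 12 measured partners of the urea cycle and of ammonia handling, Glul, the glutamine synthetase of the cells around the central vein, was higher in CJ livers at 12 weeks (0.26, adjusted p = 0.00857), and Slc25a15, the mitochondrial ornithine carrier, was lower at 30 weeks (-0.28, 0.0263). So 1 of 12 passed at each age, where 4.36% and 5.99% of all genes did at 12 and 30 weeks. With 1 mouse left out 0 to 2 passed at 12 weeks and 0 to 1 at 30 weeks. The median of the 12 was 0.05 and -0.01, against 0.02 and -0.01 over all genes. With time of day 5 of 12 varied in NS mice at each age, where 17.5% and 11.2% of all genes did at 12 and 30 weeks, and 0 of 12 in CJ mice at either age, where 5.67% and 3.71% did. Slc25a22, a mitochondrial glutamate carrier, was among them at both ages, with NS means of 4.09, 4.49 and 3.48 at ZT2, ZT10 and ZT18 at 12 weeks and 3.82, 4.49 and 3.50 at 30 weeks. Its course differed between the schedules at both ages (1.02, adjusted p = 0.0226, and 1.34, 0.0033). This did not hold without the acinar-rich arrays, a setting that leaves 1 mouse in some groups. Slc7a2, a transporter of arginine and other cationic amino acids, also peaked at ZT10 in NS mice, with ranges of 1.11 (0.000405) and 1.17 (0.000957). The others were Nags, whose product makes the activator of Cps1 (0.49, 0.0388, at 12 weeks), Glul (0.33, 0.0312, at 12 weeks), Slc25a15 (0.56, 0.0146, at 30 weeks), and the mitochondrial deacylases Sirt3 (0.34, 0.0488, and 0.53, 0.00261) and Sirt5 (0.41, 0.0288, at 30 weeks). The count of 5 at 12 weeks was 2 to 3 without any 1 of 9 mice, being 2 without mouse 3 of the NS group at ZT10 or mouse 2 of that at ZT18, and at 30 weeks it was 3 without mouse 1 of the NS group at ZT10 or mouse 1 or 3 of that at ZT18.

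Of 15 amino acid transporters, 6 varied with time of day in NS mice at each age (17.5% and 11.2% of all genes) and 1 in CJ mice at each age (5.67% and 3.71%), Slc7a8 at 12 weeks (0.83, adjusted p = 0.0215) and Slc3a1 at 30 weeks (1.08, 0.0134). In NS mice Slc3a1, a subunit of the cystine and basic amino acid transporter, was highest at ZT2 at 12 weeks (1.15, 0.0025), and Slc38a2 at ZT10 at 30 weeks (0.84, 0.00259). Slc38a3 and Slc38a4, sodium-coupled carriers of neutral amino acids such as glutamine and alanine, were highest at ZT10 in NS mice, as Sds was. Their ranges were 1.17 (adjusted p = 6.35e-06) and 1.06 (4.26e-05) at 12 weeks, and 1.19 (1.06e-05) and 0.97 (0.000108) at 30 weeks. Their course differed between the schedules at both ages, by 1.07 (0.00643) and 1.24 (0.00396) for Slc38a3 and by 1.11 (0.0153) and 0.87 (0.0369) for Slc38a4. These differences in course did not hold without the acinar-rich arrays, a setting that leaves 1 mouse in some groups. How all genes fared in this test there is not given here. Between schedules over the 3 times 0 of 15 passed at 12 weeks, where 4.36% of all genes did. At 30 weeks, where 5.99% of all genes passed, Slc16a10, a carrier of aromatic amino acids (-0.42, 0.00962), and Slc6a12, a betaine carrier (-0.26, 0.0416), were lower in CJ mice.

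**Figure D4:**
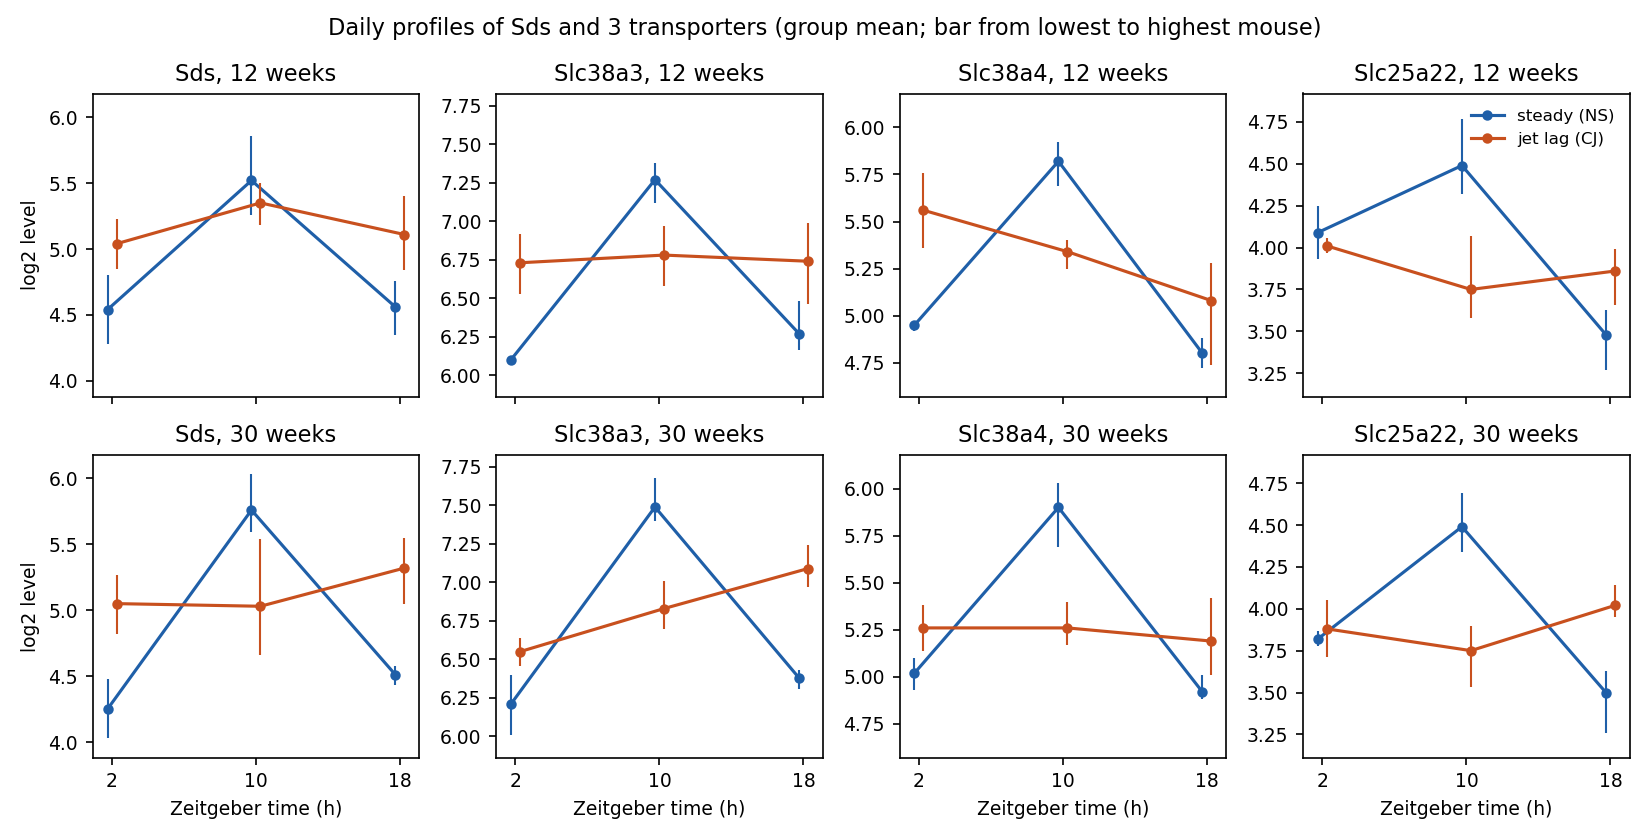
Level (log2 over the array's 75th percentile) of Sds, Slc38a3, Slc38a4 and Slc25a22 by time of day in NS (blue) and CJ (orange) livers at 12 and 30 weeks; points are group means and bars run from the lowest to the highest mouse. All 4 genes have their highest NS mean at ZT10 at both ages, for Sds 5.76 at 30 weeks against 4.25 at ZT2.

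Of 64 measured genes of amino acid catabolism, 16 were lower and 0 higher in CJ livers at 30 weeks, with a median of -0.13 against -0.01 over all genes. In that comparison 5.99% of all genes passed and 4.07% passed as lower. Acmsd, which steers tryptophan breakdown away from NAD synthesis, differed most (-1.05 ± 0.15, SE, adjusted p = 0.000265). It was followed by Bhmt, which remethylates homocysteine with betaine (-0.73 ± 0.17, 0.0111), and Gldc, of the glycine cleavage system (-0.62 ± 0.11, 0.00115). Qdpr, which restores the cofactor of phenylalanine hydroxylase, was lower at 30 weeks (-0.47 ± 0.12, 0.0149) and at 12 weeks (-0.46 ± 0.12, 0.0262). At 12 weeks 2 of 64 were lower and 0 higher, where 4.36% of all genes passed and 2.41% passed as lower. The count of 16 was 6 without the acinar-rich arrays (1.8% of all genes), 8 without the ZT2 mice (2.27%), 8 without mouse 1 of the CJ group at ZT2 and 30 weeks and 9 without mouse 1 of the NS group at that time and age. With age, 10 of 64 were lower at 30 weeks in CJ mice, where 4.99% of all genes passed and 2.73% passed as lower. In NS mice 0 of 64 changed, where 0.861% of all genes did. Shares of all genes with 1 mouse left out are not given beside the counts here. The count of 10 did not hold without the acinar-rich arrays, a setting that leaves 1 mouse in some groups. Of the CJ mice of 30 weeks, it was 3 without mouse 1 at ZT2 and 6 without mouse 2 at ZT10 or at ZT18, and of those of 12 weeks it was 3, with 1 gene higher, without mouse 2 at ZT2 and 6 without mouse 2 at ZT18. With time of day 17 and 13 of the 64 varied in NS mice at 12 and 30 weeks (17.5% and 11.2% of all genes). In CJ mice 10 and 7 did (5.67% and 3.71%), and these counts were lower without the acinar-rich arrays. The count of 17 was 11 without either NS mouse at ZT2, and the count of 10 was 3 without mouse 2 at ZT2 and 5 and 6 without mouse 2 and mouse 3 at ZT18. The count of 7 was 2 without mouse 2 at ZT2, 4 without mouse 2 at ZT18, and 4 without mouse 1 of the CJ group at ZT10 and 12 weeks.

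**Figure D5:**
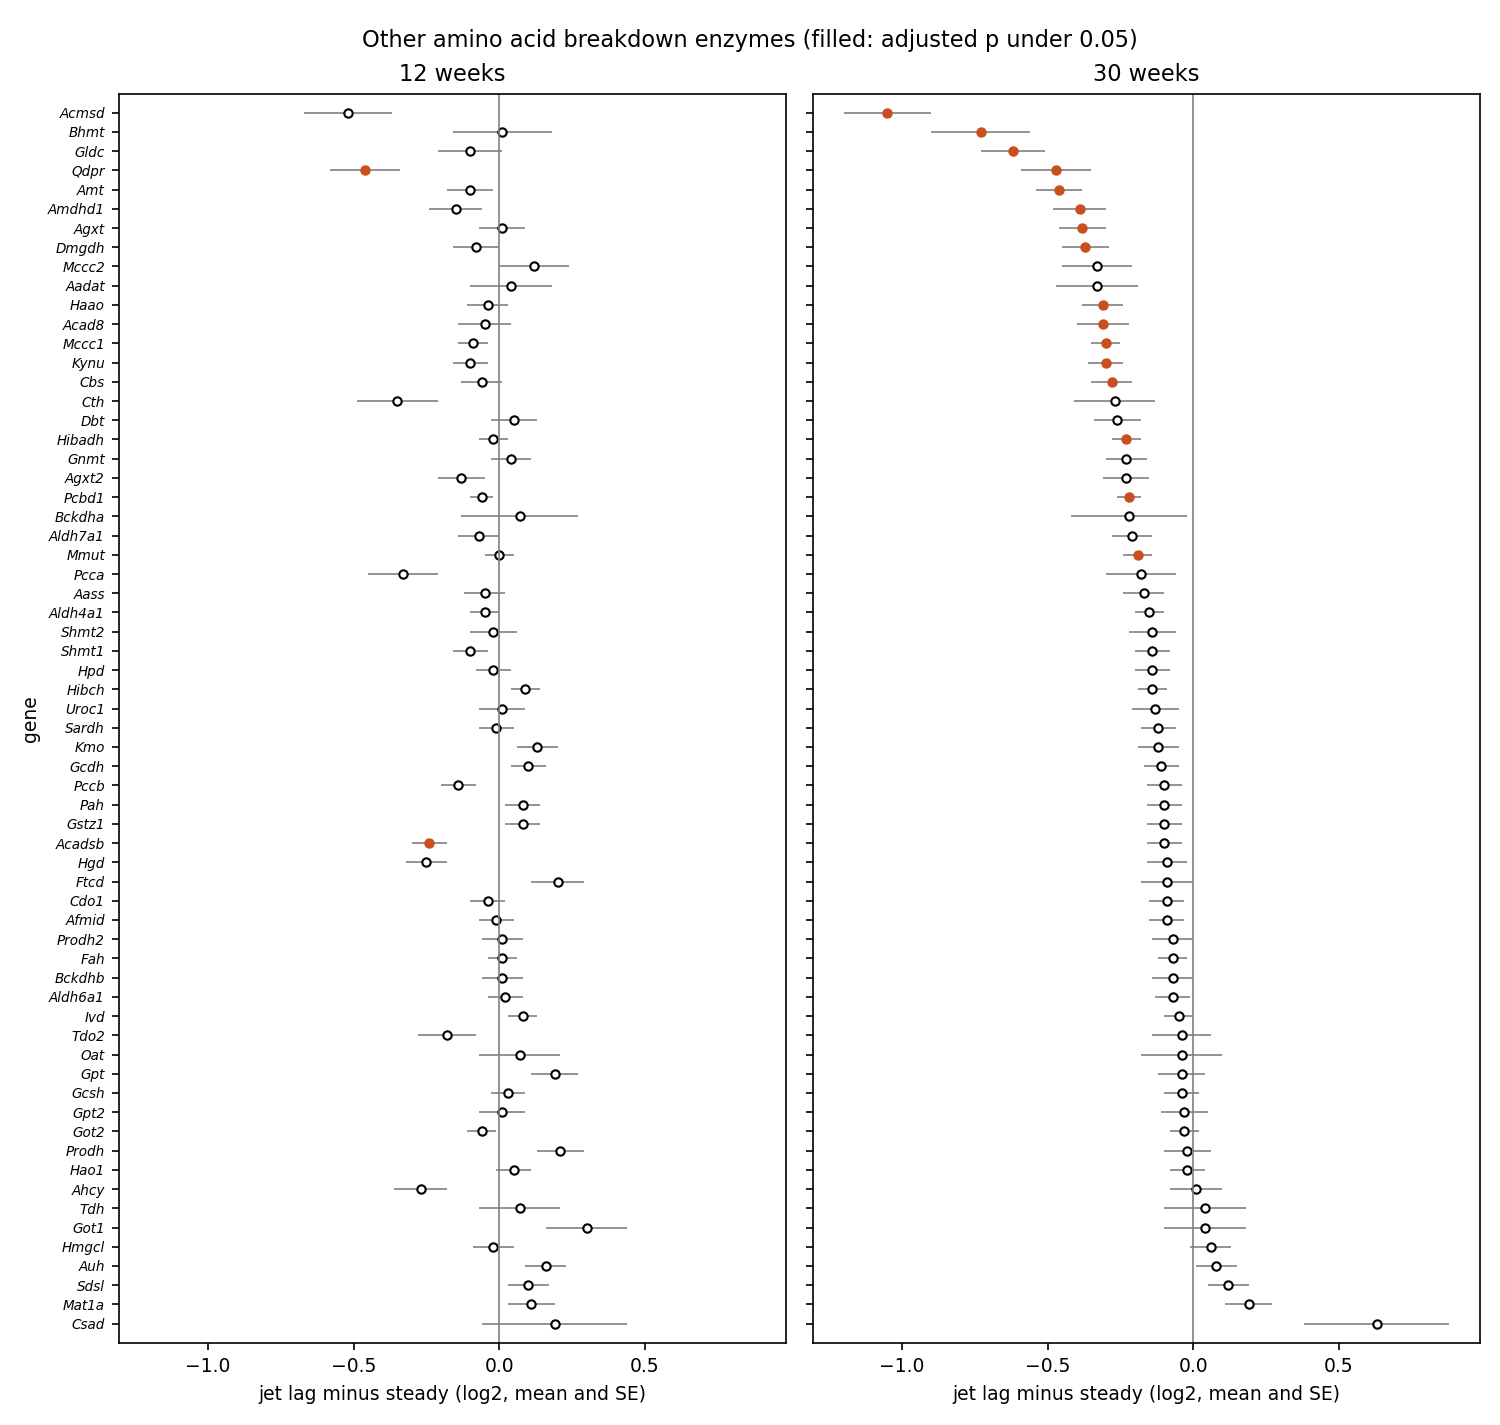
CJ minus NS difference over the mean of the 3 times (log2) for 64 genes of amino acid catabolism at 12 and at 30 weeks; filled points have adjusted p under 0.05. At 30 weeks 16 points are filled, all below 0, led by Acmsd at -1.05, and at 12 weeks 2 are filled.

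Regulators and other genes of the periportal zone were read in the same way. Of 23 measured regulators of amino acid catabolism, 3 were higher and 0 lower in CJ livers at each age, where 4.36% and 5.99% of all genes passed. With 1 mouse left out the number that passed was 1 to 5 at 12 weeks and 1 to 4 at 30 weeks. Without the acinar-rich arrays it was lower at each age. The 3 were Fkbp5 (0.64), Tsc22d3 (0.45) and Klf15 (0.36) at 12 weeks, and Fkbp5 (0.68), Foxa3 (0.45) and Hnf4a (0.28) at 30 weeks. Fkbp5 and Tsc22d3 are among the known targets of the glucocorticoid receptor. Of 15 other periportal genes, Pck1, of gluconeogenesis, was higher (0.89, adjusted p = 0.0128) and Aldh1b1 lower (-0.50, 0.0134) at 12 weeks. At 30 weeks Mfsd2a (0.77) and Hsd17b13 (0.21) were higher and Cdh1, the cadherin of periportal hepatocytes, lower (-0.48, 0.026). Without the acinar-rich arrays, a setting that leaves 1 mouse in some groups, these calls did not hold. With 1 mouse left out 1 to 4 of the 15 passed at 12 weeks and 0 to 4 at 30 weeks. Shares of all genes under these settings are not given here for this list or the regulators. The median of that list was 0.01 and -0.01 at the 2 ages, against 0.02 and -0.01 over all genes. Of 15 pericentral genes, 1 was higher and 1 lower at 12 weeks and 0 higher and 1 lower at 30 weeks. Beside both lists of 15, 4.36% and 5.99% of all genes passed at 12 and 30 weeks.

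The genes whose 12 group means ran most like those of each enzyme were found by Pearson r, as a description over 12 points that share arrays, slides and scaling. Cps1 ran most like Acmsd (0.943), Gucy1b2 (0.94) and Lsr (0.928), and Ass1 most like Aldh1l1 (0.968), Dleu2 (0.967) and Aldh7a1 (0.945). Fmo1 (0.95) and Snx8 (0.949) were among the genes closest to Asl, and Arg1 ran most like Coq7 (0.941), Fh1 (0.938), which hydrates the fumarate that Asl releases, and Tmem120a (0.932). For Otc they were Ppib (0.923), Grb10 (0.915) and Itfg1 (0.915), and for Hal they were Lrrc8d (0.965), Hsd17b2 (0.954) and Krt18 (0.947). Sds ran most like Klhl21 (0.966), Pptc7 (0.957) and Tpd52l2 (0.951), and Gls2 most like Zfp94 (0.956), Cisd1 (0.894) and Hnmt (0.86). Tat ran most like Parva (0.953), the ornithine carrier Slc25a15 (0.932) and Nes (0.923). Among the 9 enzymes themselves the closest pairs were Ass1 with Tat (0.90), Cps1 with Tat (0.86) and Cps1 with Ass1 (0.82), while Cps1 ran opposite to Sds (-0.68) and Asl opposite to Hal (-0.67).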

How the data were processed

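RNA from 32 livers was measured on 1-colour Agilent arrays, 4 to each of 8 slides. For each array the authors deposited scanner output whose processed signal is, per the file headers, an intensity after background subtraction, made with Feature Extraction 11.0.1.1, but with 9.1 per the submitters' processing notes. A second deposited file gives normalised log2 values after removal of a batch, and neither that batch nor the method is given in the sources used here. It served as an alternative: its 32 columns had medians of 9.83 to 9.9, and r with the scanner values of the same array was at least 0.999 over probes. After each gene was centred, all 32 columns matched their own array best, with r of at least 0.808.

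Control spots and outlier spots were left out, spots of a probe averaged, and log2 of the signal taken minus the array's 75th percentile. A probe was kept if every array of 1 or more groups had it well above background (30484 probes, 23106 genes, 14079 with a symbol). Symbols came from RefSeq accessions (assembly GRCm38.p6) and were found for 26582 of 55681 probes. Of the genes tested, 120 lacked a value on some array, none of them among the 9.

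The 12 group means were fitted in limma 3.58.1 (R 4.3.3, data.table version 1.17.8, statmod 1.5.0) with slide as a random block (correlation 0.245) and variance moderation (prior df 2.26). Adjusted p-values are Benjamini-Hochberg over 23106 genes in each of 17 comparisons, with 0.05 as the threshold. The script was tested on simulated data. The alternative with normexp used the median signal of each spot, since the files hold no mean signal. All 9 genes are reported in every comparison. Genes named from another list are among its 4 called genes of largest change in a comparison, not all of which are named, and the urea cycle partners that passed over the 3 times or with time of day are named, and for each of the 9 genes the 3 most alike, of which 1 is not reported here. The 9 genes and the lists were chosen with earlier results of these data known.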

Additional observations from a re-analysis of the deposited data

Results flagged for a closer look

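The course of Sds over the day differed between the schedules at 30 weeks by the test of the difference itself. The value was 1.56, the range over ZT2, ZT10 and ZT18 of the CJ minus NS difference on the log2 scale (limma, adjusted p = 0.0194). With groups of 2 and 3 mice, no group was large enough for a search for single outlying mice.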

How the results depend on the processing

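For the 9 genes 21 results passed the test. Under 13 other settings 211 of their 272 values stayed past the threshold, and 0 of the 272 turned sign. Many of these values are ranges, which cannot turn sign, so that count speaks only for the differences. With 1 of the 32 mice left out 595 of 672 values stayed past the threshold. Most of those fits left out a mouse outside the groups compared, so this share says little about the mice compared. Shares of all genes that passed are not given beside the counts under each setting. A change in count is thus not shown to be particular to the 9 genes. Without the acinar-rich arrays the calls between schedules at 12 and 30 weeks and at single times did not hold. Nor did those for schedule by time at 30 weeks or for age in CJ mice. Fewer genes passed there with time of day in NS mice at each age and in CJ mice of 30 weeks. That setting tests fewer mice and leaves 1 mouse in some groups. Whether the calls were lost with the mice or with pancreas RNA was not tested. Without all ZT2 mice the number of genes that passed was 1 between schedules at 30 weeks. With time of day in CJ mice it was 0 and 0 at 12 and 30 weeks. For schedule by time at 30 weeks it was 2 and for age in CJ mice 0. No count over single times was made, since those at ZT2 drop out. At ZT18 Cps1 (12 weeks, -0.62, adjusted p = 0.0291) and Hal (30 weeks, -0.63, 0.0364) still passed there. With the slide as a fixed block it was 2 with time of day in NS mice of 30 weeks, 1 in CJ mice of 30 weeks, 0 for schedule by time at 30 weeks, 1 for age in CJ mice and 0 at single times. With no slide block it was 0 between schedules at 12 weeks, 0 for age in CJ mice and 1 at single times. With acinar and muscle levels as covariates it was 1 in CJ mice of 30 weeks over the day, 1 for age in CJ mice and 0 at single times. The authors' table gave 5 and 2 with time of day in NS and CJ mice of 12 weeks, 2 for schedule by time at 30 weeks and 1 for age in CJ mice. Quantile normalization gave 2 in CJ mice of 12 weeks over the day and 0 for age in CJ mice, and normexp 2 and, for schedule by time at 30 weeks, 2. With probes well above background on all arrays that last count was 2, with no filter on dim probes single times gave 0, and with the mean of a gene's probes age in CJ mice gave 1. The cause of these shifts was not tested. Leaving out 1 mouse at a time gave 0 to 1 and 1 to 4 between schedules at 12 and 30 weeks, 2 to 4 and 3 to 4 with time of day in NS mice, 1 and 2 to 4 in CJ mice, 0 and 0 to 2 for schedule by time, 0 and 0 to 3 for age in NS and CJ mice, 0 for schedule by age and 0 to 5 at single times. The mouse numbers did not pair the mice: deviations of mice with the same number had a median r of -0.051 over 160 pairs. With the mouse number as a replicate block, the count in CJ mice of 30 weeks over the day was 4 and that at single times 2, and the other counts were as before. The number of mice per group limits the precision.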
